A study of Mus musculus with 2 samples.

Results

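The 10 genes described here encode the vascular endothelial growth factors and angiopoietin-1, the receptors through which these ligands act on endothelial cells, adhesion proteins of the endothelium, and the oxygen-regulated factor that drives *Vegfa* transcription. They were chosen by name, as Vegfa, Vegfb, Flt1, Kdr, Tek, Angpt1, Pecam1, Cdh5, Nrp1 and Hif1a, and all 10 were present among the 27571 genes of the arrays, with 24 of 41174 probes. Their mRNA was measured in gastrocnemius (GAS) muscle of wild-type (WT) mice and of *Gde5* skKO mice, which lack GDE5 (Gpcpd1), a phosphodiesterase that splits glycerophosphocholine, in skeletal muscle. The mice were male, 15 weeks old and on a normal diet, 5 of each genotype. In *Gde5* skKO mice, Cre recombinase under the human skeletal actin (HSA) promoter removes a floxed exon of *Gde5* in muscle fibres, so that the endothelial cells of the same muscle are not the target of the deletion. For contraction, glucose tolerance and fasting experiments the study's controls were littermates that carry the floxed alleles without Cre (Gde5 flox/flox), while for the arrays the labels give the controls only as wild-type. The study describes muscle transcriptomes of these genotypes after a glucose injection and after fasting, and the labels do not say in which state the mice of these arrays were, so they may have been given glucose or fasted. RNA of both genotypes was hybridised together on 2 two-colour Agilent arrays, with *Gde5* skKO in Cy5 and WT in Cy3 on array 1 and the dyes swapped on array 2. Pooling of the RNA of the mice is not described in the labels, and the arrays may have shared their RNA. They were therefore treated as a pair of hybridizations, and differences between mice could not be tested.

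In muscle, fibres release vascular endothelial growth factor A, which binds the receptors VEGFR2 (Kdr) and VEGFR1 (Flt1) on the capillary endothelium. VEGFR2 carries most of the growth and permeability signal, while VEGFR1 binds the ligand tightly and signals weakly, so that it also acts as a trap. Neuropilin-1 (Nrp1) presents the ligand to VEGFR2 as a co-receptor. Angiopoietin-1 comes mainly from perivascular cells and activates the receptor Tie2 (Tek), which keeps the capillary wall quiescent. When oxygen falls, prolyl hydroxylases stop marking HIF-1α for destruction and the stabilised factor switches on *Vegfa* and other targets.

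A gene was called higher or lower in *Gde5* skKO muscle when its brightest probe had a Feature Extraction p-value under 0.05 on both arrays and the ratio, turned to *Gde5* skKO over WT, had the same direction on both. This p-value comes from the error model of the scanner software and speaks for the spots of a hybridization, not for the spread between mice. A gene was tested when at least 1 genotype gave its probe a signal that Feature Extraction marked as well above background, on array 1 and on array 2 alike. Of 13573 such genes, 215 (1.58%) were called higher and 235 (1.73%) lower, while 214 genes passed the same threshold in the direction of the dyes. The middle 95% of mean log2 ratios ran from -0.53 to 0.55, and 54.5% of genes had the same sign on both arrays. *Gde5* itself, listed as Prei4, had log2 ratios between -2.59 and -3.29 on 3 of its 4 probes, and -0.05 and -0.47 on the fourth. All 8 muscle fibre markers were well above background.

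Of the 10 vascular genes, all were well above background on both arrays, Kdr was called higher and none was called lower. By the unadjusted p of limma, too, Kdr was higher and none was lower. In the deposited ratios, Vegfa, Nrp1 and Pecam1 were also positive on both arrays, and Tek and Cdh5 were negative on both. Vegfb, Angpt1, Flt1 and Hif1a changed sign between the arrays there. Some of these signs rested on the processing. In the ratios of limma, the brightest probes of Vegfa (-0.19 and 0.38), Tek (0.02 and -0.18) and Cdh5 (0.02 and -0.13) changed sign. Angpt1 (-0.07 and -0.02) was then negative on both arrays. The means of the deposited log2 ratios ran from -0.22 to 0.42 with a median of -0.05, beside a median of 0.01 over all genes tested. One of 10 genes is too few to set its share against the 1.58% of all genes. After dye normalization, a ratio gives mRNA relative to the other RNA of the muscle, and more endothelial cells cannot be told apart from more mRNA per cell.

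**Figure D1:**
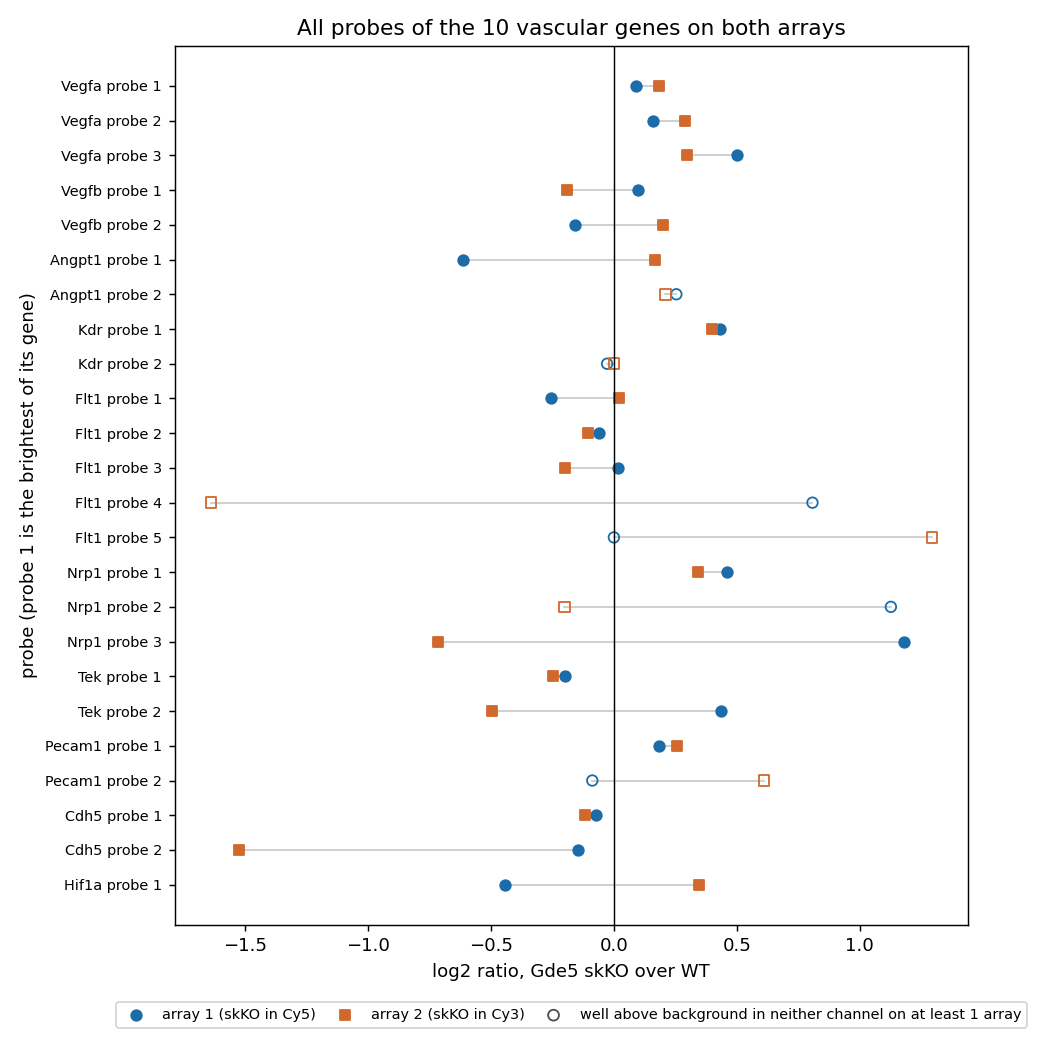
Log2 ratio of *Gde5* skKO over WT (horizontal axis) for each of the 24 probes of the 10 genes (vertical axis, grouped by gene), on array 1 (circles) and array 2 (squares), with a grey line joining both arrays and open symbols for 6 probes well above background in neither channel on at least 1 array. The first Kdr probe lies at 0.43 and 0.40 with both symbols nearly on top of each other, whereas the symbols of Hif1a, of the first Angpt1 probe and of both Vegfb probes lie on opposite sides of 0.

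Among the ligands, Vegfa was represented by 3 probes on chromosome 17, all well above background and all with positive ratios on both arrays. On the brightest, chr17:45481019-45481078 of the mouse assembly mm8, the processed signal of *Gde5* skKO against WT was 4731 against 4444 on array 1 and 5648 against 4973 on array 2. Its log2 ratios of 0.09 and 0.18 had Feature Extraction p-values of 0.659 and 0.370. The second probe, chr17:45482144-45482203, was printed as 10 spots, and all 10 spots were higher in *Gde5* skKO on each array. Its spot ratios averaged 0.16 with an SD of 0.04 on array 1 and 0.29 with an SD of 0.07 on array 2, with median p-values of 0.406 and 0.133. The third probe, chr17:45489008-45489067, had the largest ratios of the 3, 0.50 and 0.30, and its Feature Extraction p-values of 0.0180 and 0.156 passed the threshold on array 1 alone. So the 3 probes shared a direction in the deposited ratios, and none was called. In limma the brightest probe changed sign (-0.19 and 0.38), while the second (0.14 and 0.26) and the third (0.34 and 0.22) stayed positive.

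Vegfb, which binds VEGFR1 but not VEGFR2, was measured by 2 bright probes. The brighter had log2 ratios of 0.10 and -0.19, and the other had -0.16 and 0.20. The probes thus differed in sign on each array and each reversed with the dyes, and their mean ratios were -0.05 and 0.02.

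Angpt1 was dim. On its brightest probe the signal in *Gde5* skKO was 119 against 182 in WT on array 1 and 159 against 141 on array 2. The ratio was -0.61 on array 1 and 0.17 on array 2, with Feature Extraction p-values of 0.0183 and 0.529, so the gene passed on a single array and was not called. The second Angpt1 probe was above background in 1 channel of 1 array and gave no usable ratio.

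Kdr, the main signalling receptor for vascular endothelial growth factor A, was the single called gene. Its probe, chr5:76214981-76215040 of mm8 on the minus strand, was printed as 10 spots. The signal of *Gde5* skKO was 4779.6 against 3542 in WT on array 1, and 5141 against 3901 on array 2, so *Gde5* skKO was brighter than WT in either dye. The log2 ratios were 0.43 and 0.40, a mean 1.33-fold higher level, with median spot p-values of 0.0413 and 0.0453. All 10 spots were higher on each array, between 0.38 and 0.51 on array 1 (SD 0.04) and between 0.30 and 0.46 on array 2 (SD 0.05). Of the 10 spots, 7 on each array had a p-value under 0.05, and the spot p-values ran from 0.0146 to 0.0681 on array 1 and from 0.0271 to 0.144 on array 2. The error model gives a single spot of this probe an SD of 0.21 on either array, which is wider than the spread seen between the spots and places the median p-value close to the threshold. With normexp background correction and loess in limma the ratio was 0.39 (SE 0.10, unadjusted p of the moderated test 0.00424), and the Benjamini-Hochberg adjusted p over all genes was 0.201. By the same unadjusted p, 4.24% of 13570 genes were higher and 4.27% lower. Of all genes tested, 5.14% had a higher mean ratio than Kdr. The second Kdr probe, chr5:76243311-76243370, was below background in both channels on both arrays and says nothing of the change. When the largest p-value over the spots was used in place of the median, Kdr was no longer called.

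**Figure D2:**
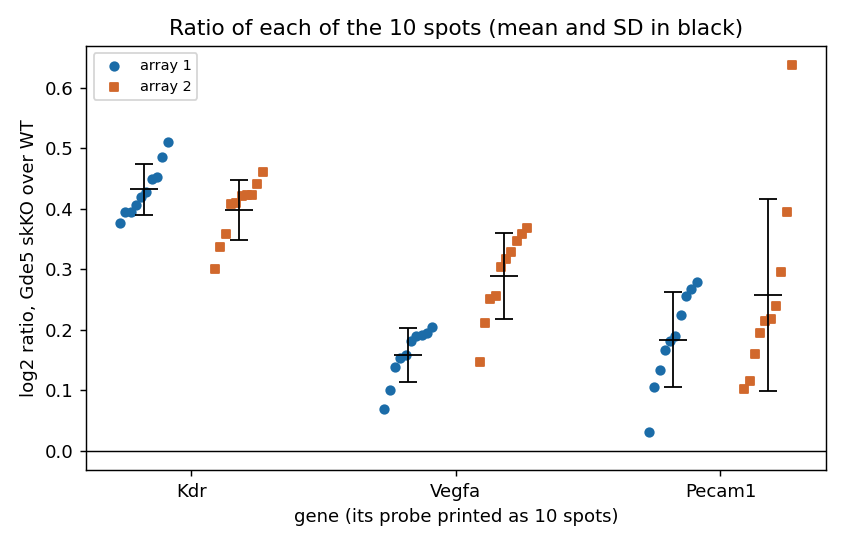
Log2 ratio of *Gde5* skKO over WT (vertical axis) for each of the 10 spots of the Kdr, Vegfa and Pecam1 probes that were printed repeatedly (horizontal axis), on array 1 (circles) and array 2 (squares), with the mean and SD over spots in black. Every spot lies above 0, and on array 1 the Kdr spots, from 0.38 to 0.51, lie above all spots of Vegfa and Pecam1, while on array 2 the ranges of the 3 genes overlap.

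The upstream sequence of Kdr is shown beside that of Flt1, its sister receptor on the same chromosome, because the former was called higher and the latter was not. Each is the 250 bases before the RefSeq gene start on GRCm38.p6, chr5:75978456-75978705 for Kdr and chr5:147726012-147726261 for Flt1, both read from the minus strand. Capitals mark the GC box GGGCGG or its reverse complement CCGCCC, the sites searched on both strands.
Kdr: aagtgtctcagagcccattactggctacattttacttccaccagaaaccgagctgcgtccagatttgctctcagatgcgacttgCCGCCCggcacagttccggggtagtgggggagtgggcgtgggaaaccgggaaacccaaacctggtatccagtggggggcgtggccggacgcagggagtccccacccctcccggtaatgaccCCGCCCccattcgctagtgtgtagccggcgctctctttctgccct
Flt1: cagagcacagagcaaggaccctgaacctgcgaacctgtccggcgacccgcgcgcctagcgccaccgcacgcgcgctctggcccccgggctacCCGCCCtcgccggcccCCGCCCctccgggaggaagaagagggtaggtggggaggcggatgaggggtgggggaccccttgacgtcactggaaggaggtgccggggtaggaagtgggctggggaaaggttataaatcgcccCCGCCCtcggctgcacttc
The Kdr window held 2 GC boxes and the Flt1 window 3, and 32.7% of 32851 RefSeq promoter windows of this length held at least 1. The HIF core ACGTG, on either strand, was found in neither window and in 16.6% of all windows. Such matches describe letters only, and the arrays do not measure binding there.

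Flt1, the receptor that binds the ligand tightly, was not called. Its brightest probe, chr5:147872564-147872623 of mm8, had a signal of 10806 in *Gde5* skKO against 12900.1 in WT on array 1 and 13114 against 12915 on array 2. The log2 ratios were -0.26 and 0.02, with Feature Extraction p-values of 0.213 and 0.914. The other pair of bright Flt1 probes had ratios of -0.06 and -0.10, and of 0.02 and -0.20, so that the 3 bright probes had mean ratios between -0.12 and -0.08. The last 2 probes, derived from cDNA clones in the Flt1 locus, were below background. The difference between Kdr and Flt1 was not tested, since ratios of different probes on 2 arrays allow no test across mice.

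Nrp1, the co-receptor, had a mean ratio of 0.40 on its brightest probe, next to that of Kdr, and was not called. On that probe, chr8:131246199-131246258, the signal was 322 in *Gde5* skKO against 234 in WT on array 1 and 275 against 217 on array 2. The ratios of 0.46 and 0.34 had p-values of 0.0360 and 0.127, so the gene passed on array 1 alone. In limma the ratio was 0.19 (unadjusted p of the moderated test 0.0934), and by loess without background correction it was 0.21. An offset of 50, used in the former, pulls ratios of dim probes towards 0. Its part in the smaller ratio was not tested. The other Nrp1 probes were dimmer and followed the dye. Their ratios were 1.13 and -0.20 on one, and 1.18 and -0.72 on the other.

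Tek, the receptor of the angiopoietins, had ratios of -0.20 and -0.25 on its brightest probe, with Feature Extraction p-values of 0.358 and 0.320. The signals there were 309 in *Gde5* skKO against 354 in WT on array 1 and 253 against 301 on array 2. A second Tek probe, assigned through a cDNA clone, had 0.43 on array 1 and -0.50 on array 2, so that Cy5 was brighter on both arrays and the mean was -0.03. Neither was called, and the direction of Tek differed between its probes on array 1.

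Pecam1 (CD31) and Cdh5 (VE-cadherin) are adhesion proteins of endothelial junctions and are commonly used to mark endothelial cells. Pecam1, printed as 10 spots at chr11:106497165-106499018, had signals of 180 in *Gde5* skKO against 158 in WT on array 1 and 218 against 183 on array 2. All 10 spots were higher on each array, with mean ratios of 0.18 (SD 0.08) and 0.26 (SD 0.16) and median p-values of 0.403 and 0.355. In limma the mean ratio of Pecam1 was 0.07. A second Pecam1 probe was below background. Cdh5, whose brightest probe lies at chr8:107033388-107033447, had signals of 2685 against 2823 on array 1 and 2636 against 2859 on array 2, and ratios of -0.07 and -0.12. The Feature Extraction p-values of these ratios were 0.723 and 0.567. A second, dim Cdh5 probe had -0.14 on array 1 and -1.52 on array 2, where *Gde5* skKO was not well above background. These 2 endothelial markers therefore had ratios of opposite sign and neither was called. Their values and the Kdr ratio stand side by side, and whether the number of endothelial cells differed was not tested.

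Hif1a encodes the oxygen-regulated subunit of HIF-1, which is controlled mainly at the level of the protein. Its single probe, chr12:74865120-74865180, had signals of 389 in *Gde5* skKO against 528 in WT on array 1 and 548 against 431 on array 2. The ratios were -0.44 and 0.35 with Feature Extraction p-values of 0.0380 and 0.100, so Cy3 was brighter on both arrays and the mean ratio was -0.05.

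**Figure D3:**
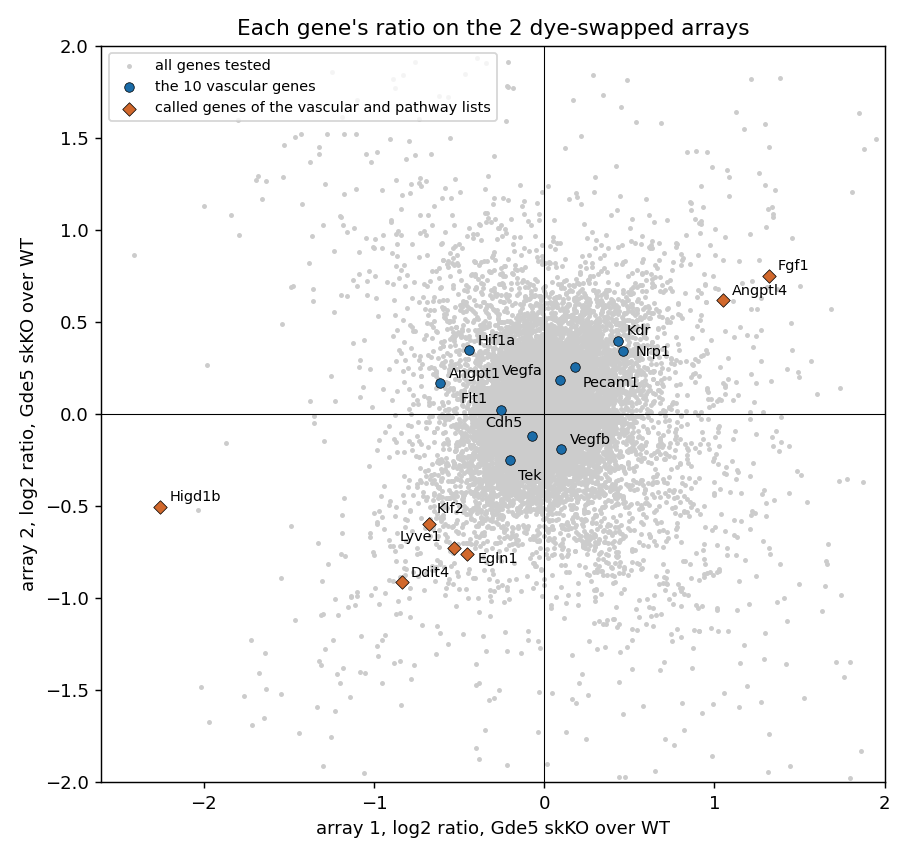
Log2 ratio of *Gde5* skKO over WT on array 1 (horizontal axis) against array 2 (vertical axis) for the genes tested (grey, with 98 of 13573 outside the axes), the 10 vascular genes (circles) and the 7 called genes of the vascular and pathway lists (diamonds). Kdr and Nrp1 lie together at the upper right of the 10 genes, and Hif1a and Angpt1 lie at the upper left where the arrays oppose each other. The called list genes lie farther out, each with the same sign on both arrays but not all with equal ratios. Fgf1 lies at 1.32 and 0.75, and Higd1b, the farthest from equal ratios, at -2.26 and -0.50.

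The partners of these genes were read from lists written from general knowledge. The 9 lists of ligands, receptors, HIF pathway genes, inhibitors, junction proteins and vascular cell markers held 145 genes, of which 123 were tested. Of these 123, 2 (1.63%) were called higher and 5 (4.07%) lower, beside 1.58% higher and 1.73% lower over all genes tested. Whether these shares differ was not tested. The median log2 ratio of the 123 genes was 0.00. Among the further members of the VEGF and angiopoietin family, 8 of 11 genes were tested. Tie1, the orphan partner of Tek in endothelial cells, had log2 ratios of 0.47 and 0.43 and narrowly missed the call, with Feature Extraction p-values of 0.0311 and 0.0510. In limma its ratio was 0.25 with an unadjusted p of the moderated test of 0.0342. Its direction was opposite to that of the brightest Tek probe. Ptprb, the endothelial phosphatase that holds down Tie2 and VEGFR2 signalling, had 0.30 and 0.16 on its brightest probe but means of -0.25 and -0.31 on a pair of other probes. Vegfc (-0.18 and 0.10), Vegfd (-0.38 and -0.08), Angpt2 (0.05 and 0.24) and Nrp2 (-0.04 and -0.06) were not called. Pgf and Flt4 were not well above background. Angptl4, an angiopoietin-like inhibitor of lipoprotein lipase that binds no Tie receptor, was the called gene of this list, with ratios of 1.05 and 0.62, a mean 1.78-fold higher level, and Feature Extraction p-values of 3.34e-06 and 0.00350.

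Of 23 tested genes among other angiogenic ligands and receptors, only Fgf1, a fibroblast growth factor, was called, higher at 1.32 and 0.75. WT was well above background on 1 of 2 arrays there, and in limma the ratio was 0.15 (unadjusted p 0.174). By the unadjusted p of limma, 2 other genes of this list were higher, Aplnr and Ramp2, and 1 was lower, Notch1. These were named after their values were seen. None of 9 tested angiogenesis inhibitors was called, and none of 10 tested genes of endothelial junctions, Cdh5 partners among them. The median ratios of the 2 lists were 0.10 and -0.01. By the unadjusted p of limma, 1 inhibitor was higher and 1 lower, and of the junction genes 0. For the inhibitors the median was -0.13 over the 7 genes with signal in both channels, so its sign rested on the filter.

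In the oxygen-sensing pathway, a hydroxylase gene and a HIF target were called lower, and no other gene of either list was called. Egln1, the main prolyl hydroxylase that marks HIF-1α for destruction and itself a HIF target, had log2 ratios of -0.45 and -0.76, with Feature Extraction p-values of 0.0295 and 0.000431, and its second probe had a mean of -0.53. Among 16 tested HIF targets, Ddit4, a stress-induced inhibitor of mTORC1, was the called gene, with ratios of -0.84 and -0.91. The median of the targets was -0.05. By the unadjusted p of limma, 2 targets were lower, Ddit4 and Pfkfb3, and 0 were higher. Pfkfb3, named after its values were seen, had ratios of -0.57 and -0.31. Epas1, the HIF-2α gene, had 0.11 and 0.18, Arnt, the shared partner subunit, had -0.12 and 0.03, and Vhl was not well above background. Hif1a thus had no common direction on the arrays while Egln1 was lower on both.

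Endothelial markers had medians near those of all genes. Of 33 markers, 32 were tested, with Sele at background, and their medians were 0.02 on array 1 and 0.05 on array 2, beside 0.01 and 0.02 over all genes. The summed signal of the tested markers was 74682 and 74091 in *Gde5* skKO, and 74397 and 77846.5 in WT. Klf2, a flow-responsive endothelial transcription factor, was called lower at -0.68 and -0.60, with Feature Extraction p-values of 0.00152 and 0.00476, although its second probe had -0.14 and 0.09. By limma's unadjusted p, 2 markers were higher, Cldn5 and Sox18, and 3 were lower, Klf2, Vwf and Klf4, apart from Klf2 named after their values were seen. The ratios of Cldn5 were 0.35 and 0.79, and those of Vwf -0.22 and -0.36. Among the 14 pericyte and smooth muscle markers tested, Higd1b was called lower at -2.26 and -0.50, with -0.31 in limma. The median of this list was 0.00. By limma's unadjusted p, 1 of its markers was lower, Higd1b, and 1 was higher, Acta2, named after its values were seen. Acta2 had 0.48 and 0.31 on its brightest probe and means of -0.08 and -0.00 on its other tested probes. Of 3 tested lymphatic markers, Lyve1, a hyaluronan receptor, was called lower at -0.53 and -0.73. Prox1 went the other way at 0.67 and 0.46, Reln had 0.11 and -0.21, and neither was called. The median of the lymphatic list was -0.05.

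Markers of adipocytes and slow fibres were also called. Of 6 tested adipocyte markers, 5 were called lower, with Adipoq at -0.97 and -1.03 and a list median of -0.77, while Lep was at background. Their summed signal was 43232 and 41144 in *Gde5* skKO, and 43777 and 45066 in WT. Most of this sum was Fabp4, the tested adipocyte marker that was not called, with ratios of 0.13 and -0.02. Its signal was 38866.5 and 36768.5 in *Gde5* skKO, and 35638 and 37187 in WT, so the sum says little of the 5 called markers. Of 10 tested slow fibre markers, 3 were called higher, Myl2, Tnni1 and Casq2, with Myl2 at 0.80 and 0.87 and a list median of 0.38. Their summed signal was 146621 and 144274 in *Gde5* skKO, and 104208 and 106397 in WT. Myh7, the slow myosin of this list, had 0.30 and 0.36 and was not called. In limma its ratio was 0.33 (unadjusted p of the moderated test 0.00938). By qPCR, the study reports comparable fibre-type mRNA in both genotypes, and its primers include Myh7. Slow fibres are known to have a denser capillary bed than fast fibres, and adipocytes express Angptl4 and Vegfa. The part of either in the ratios of Kdr, Nrp1, Vegfa or Angptl4 was not tested. No leukocyte, blood, fibroblast, nerve or general muscle fibre marker was called, with list medians from -0.18 to 0.03, and by the unadjusted p of limma 2 of these 29 genes were higher and 3 lower.

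**Figure D4:**
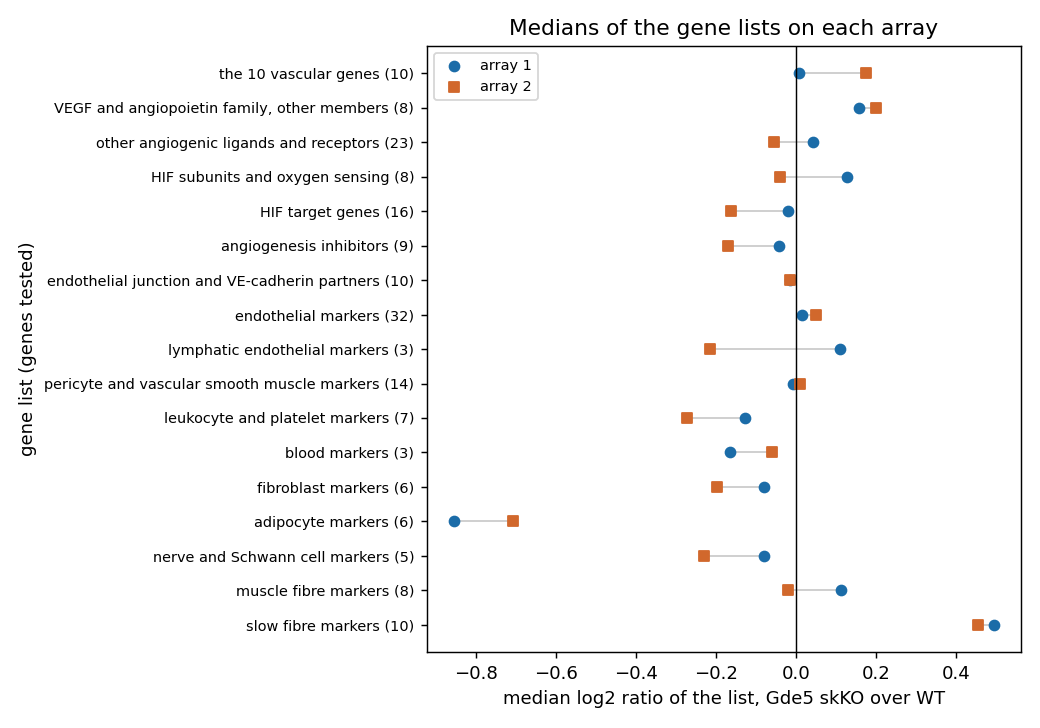
Median log2 ratio of *Gde5* skKO over WT (horizontal axis) of the 10 vascular genes and of each of the 16 gene lists (vertical axis, with the number of genes tested in brackets) on array 1 (circles) and array 2 (squares). The endothelial markers lie at 0.02 and 0.05, the adipocyte markers at -0.86 and -0.71, and the slow fibre markers at 0.49 and 0.46.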

How the data were processed

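Total RNA of GAS muscle was labelled with Cy3 or Cy5 and hybridised to Agilent whole mouse genome arrays. The authors read the scans in Feature Extraction 9.5 (9.5.3.1 per the file headers). The deposited log10 ratio of each spot is Cy5 over Cy3 after background subtraction and dye normalization. The deposited files also give a p-value from the error model and the intensity of each channel. A deposited table of the whole series holds the same log10 ratio again.

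Every ratio was put on the log2 scale as *Gde5* skKO over WT. Outlier spots, 164 on array 1 and 200 on array 2 of 43379, were left out. Spots of a probe were averaged, with the median p-value, and the brightest probe stood for a gene. Probes were named through RefSeq, 24337 by accession, 6296 by symbol and 2422 by synonym, and 8064 kept the array's name. The probe listed as Ang1 is angiogenin by accession and was not counted as Angpt1. Probe coordinates come from the annotation of the arrays (mm8), and no exon annotation of mm8 was used. Well above background were 44.6% to 53.2% of spots per channel in *Gde5* skKO and 45.6% to 47.4% in WT. Both arrays lie on 1 slide and 1 scan, so slide could not be a block. The number of arrays limits the precision.

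The 10 genes and the 16 gene lists were chosen with earlier results of these data known. Every probe of the 10 genes, 12 partners and up to 4 called genes per list were named. Other list genes were named after their values were seen. Alternatives were normexp (offset 50) and loess in limma 3.58.1 (R 4.3.3), with 14 spots of array 1 beside debris left out of it, loess without background correction, the series table, the moderated test of limma, a t-test as in the methods on channel values, other filters, thresholds and probes, and each array alone. The call was tested on simulated data of both arrays, where 200 of 13573 genes differed by 1.5 (log2). There 97.5% were recovered and 0.157% of unchanged genes were called. The simulated noise and the p-values came from the same error model, so the share of unchanged genes called followed from that model. It is not the error rate of the real arrays, where 214 genes passed in the direction of the dyes. Recovery of changes as small as that of Kdr (0.42) was not tested. Python 3.11.15 was used with pandas 2.3.3, numpy 2.4.6, matplotlib 3.10.9 and scipy 1.17.1.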

Additional observations from a re-analysis of the deposited data

How the results depend on the processing

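Kdr was higher in 10 of 14 alternatives, with log2 ratios from 0.39 to 0.43, and it was positive in each of them. Several of these alternatives kept the Feature Extraction p-values of the main call and changed only the ratios or the filter. Each array alone read again a p-value that the main call already required. The alternatives with another p-value that kept the call were the unadjusted tests of limma and of the methods. The count of the 10 genes called higher was 0 under the adjusted p of limma, the adjusted methods' t-test, a Feature Extraction p under 0.01, and the largest p over the spots of a probe, an alternative added after seeing the data. Leaving out 1 array gave 1 to 2 genes called higher, the second being Nrp1 on array 1 alone. The count called lower was 1 (Cdh5) by the unadjusted methods' t-test and 0 to 2 with 1 array left out, Angpt1 and Hif1a on array 1 alone. No other alternative changed either count. Of the 140 values of single genes under the alternatives, 132 kept their side of the threshold, 4 passed it newly and 4 (Kdr) lost it.

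Of the 123 list genes, 2 were higher and 5 lower. The count higher was 8 by limma's unadjusted and 0 by its adjusted p, 9 by the unadjusted and 0 by the adjusted methods' t-test, 1 at p under 0.01, 1 with a filter on both channels, and 6 to 8 on 1 array. The count lower was 10 by limma's unadjusted and 2 by its adjusted p, 0 by the adjusted methods' t-test, 2 at p under 0.01, and 7 to 10 on 1 array. Over all genes, 4.24% were higher and 4.27% lower by limma's unadjusted p. Every ratio already compares both genotypes within an array, so for ratios the array is the pairing and a further block could not be added. The methods' t-test was unpaired, since it compared the channel values of the genotypes without regard to the array. With 2 arrays, changes as small as that of Kdr lie at the edge of what the error model resolves.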
